A study of Mus musculus with 23 samples.

Results

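The 7 genes that encode the inhibitors of cyclin-dependent kinases (CDKs) were followed across 23 mouse arrays. They comprised the 4 INK4 genes Cdkn2a, Cdkn2b, Cdkn2c and Cdkn2d and the 3 CIP/KIP genes Cdkn1a, Cdkn1b and Cdkn1c. They were found by symbol, as the probe sets that the platform annotation assigns to that gene alone, and 7 of the 12393 genes measured in this way were members. Their 9 probe sets included a pair each for Cdkn1a and Cdkn1b. The probe set with the highest mean over all arrays served as the main one, and the others are given beside it.

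Per the labels, the Ezh2-deficient mouse embryonic fibroblasts (MEFs, n = 3) and the Snf5 Ezh2-deficient MEFs (n = 3) were embryonic cells of age E13.5, each with 3 Wild Type MEF arrays of the same age listed as controls. The Snf5-deficient samples (n = 5) were CD8+ T cells purified from lymphomas, and their controls (n = 6) were CD8+ T cells purified from Wild Type mice, all aged 10 to 15 weeks. The design text states that the genes were inactivated conditionally in the MEFs; the Cre driver, the time since deletion, and the number of passages or animals, are unstated in the sources used here. The Snf5 Ezh2-deficient MEFs are also called double-deficient. Ezh2 is the methyltransferase of the Polycomb complex PRC2, and Snf5 is the SWI/SNF chromatin remodelling subunit encoded by Smarcb1.

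CDKs drive a cell from one phase of its division cycle to the next. INK4 proteins bind CDK4 and CDK6 and keep them from D-type cyclins, so that the retinoblastoma protein stays active and E2F target genes stay off; CIP/KIP proteins bind cyclin-CDK complexes, CDK2 above all. Cdkn2a also encodes, through an upstream first exon, the Arf protein, which restrains Mdm2 and so raises p53, the factor that in turn activates Cdkn1a. Polycomb complexes are known to hold the Cdkn2a and Cdkn2b locus silent in young fibroblasts, and SWI/SNF is known to oppose them there.

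The start regions of Cdkn2a and Cdkn2b are shown because these neighbours moved in opposite directions in the double-deficient MEFs. Those of Cdkn1a, which has 2 starts, are shown because its 2 probe sets disagreed. Neither probe set could be placed relative to a start, and no link between a start region and a change was tested. Each window spans 250 bases before to 50 bases after an annotated start (RefSeq, GRCm38.p6), 5′ to 3′ on the gene's strand. Starts of 6 members were listed, in 9 windows, and Cdkn1c is named only. Capitals mark CG dinucleotides (CpG), except in the upstream Cdkn1a window, where they mark a pair of CATG cores 6 bases apart, the letters at the heart of a p53 element (searched as CATGNNNNNNCATG, which reads the same on both strands).
Cdkn2a, upstream start (Arf), chr4:89294570-89294869, minus strand: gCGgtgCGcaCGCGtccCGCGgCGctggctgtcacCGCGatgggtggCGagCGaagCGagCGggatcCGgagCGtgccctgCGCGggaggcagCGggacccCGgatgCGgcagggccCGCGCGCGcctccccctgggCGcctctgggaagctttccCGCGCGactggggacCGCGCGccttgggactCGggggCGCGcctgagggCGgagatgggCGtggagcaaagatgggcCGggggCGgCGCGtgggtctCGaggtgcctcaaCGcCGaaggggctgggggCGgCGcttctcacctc
Cdkn2a, downstream start (p16), chr4:89282143-89282442, minus strand: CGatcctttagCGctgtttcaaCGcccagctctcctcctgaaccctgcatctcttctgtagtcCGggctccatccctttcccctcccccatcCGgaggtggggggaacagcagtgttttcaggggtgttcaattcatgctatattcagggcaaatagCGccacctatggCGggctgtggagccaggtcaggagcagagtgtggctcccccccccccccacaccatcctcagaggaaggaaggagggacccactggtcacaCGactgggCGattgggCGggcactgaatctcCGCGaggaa
Cdkn2b, chr4:89310983-89311282, minus strand: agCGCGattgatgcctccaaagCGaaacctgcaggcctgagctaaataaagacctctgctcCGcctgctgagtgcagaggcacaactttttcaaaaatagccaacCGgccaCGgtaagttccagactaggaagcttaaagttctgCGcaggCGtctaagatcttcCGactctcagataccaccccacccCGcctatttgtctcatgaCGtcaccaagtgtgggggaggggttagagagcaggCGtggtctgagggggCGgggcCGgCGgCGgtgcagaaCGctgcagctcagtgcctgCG
Cdkn1a, upstream start, chr17:29090729-29091028, plus strand: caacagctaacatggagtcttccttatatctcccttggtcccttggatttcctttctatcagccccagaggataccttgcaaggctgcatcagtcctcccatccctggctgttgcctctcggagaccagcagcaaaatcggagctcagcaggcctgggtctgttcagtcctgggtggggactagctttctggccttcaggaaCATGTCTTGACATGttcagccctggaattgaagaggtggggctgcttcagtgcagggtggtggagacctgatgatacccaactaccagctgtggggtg
Cdkn1a, downstream start, chr17:29093519-29093818, plus strand: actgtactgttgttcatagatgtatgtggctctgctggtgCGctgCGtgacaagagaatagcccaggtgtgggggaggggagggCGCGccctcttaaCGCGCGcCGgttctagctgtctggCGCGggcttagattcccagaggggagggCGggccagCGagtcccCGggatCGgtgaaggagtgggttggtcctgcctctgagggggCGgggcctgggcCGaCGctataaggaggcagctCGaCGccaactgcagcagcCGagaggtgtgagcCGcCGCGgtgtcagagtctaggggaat

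Over all 32851 windows of the same length, the median was 7 CpG, with quartiles of 3 and 20. The Arf start of Cdkn2a held 45 CpG, at least as many as 98.4% of windows, while the p16 start held 12 and the Cdkn2b start 18. The downstream start of Cdkn1a held 23 CpG and the upstream start 2. The CATG pair stood in the upstream Cdkn1a window and in 0.712% of all windows. None of the other 8 member windows held these letters, which says nothing about the factor. Of the remaining members, Cdkn2c held 33 and 8 CpG at its 2 starts, Cdkn2d 22 and Cdkn1b 30.

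The values were RMA intensities, which are reported on the log2 scale, and a change is the difference of group means on that scale. The 3 second-set Wild Type MEF arrays were the same hybridisations as the 3 first-set ones, summarised again: arrays of the same number differed with an SD of 0.0219 to 0.0241, against 0.137 to 0.152 for different numbers. Each was therefore counted once, so that 9 distinct MEF arrays entered the fit and both MEF comparisons share all their controls. As a check of the labels, Ezh2 fell by 2.18 in the Ezh2-deficient and by 1.66 in the double-deficient MEFs, and Smarcb1 fell by 2.46 in the double-deficient MEFs and by 3.65 on average in the lymphomas, where its level varied between arrays. Smarcb1 changed by -0.14 in the Ezh2-deficient MEFs and did not pass there (adjusted p = 0.285, limma). Fibroblast markers averaged 10.54 to 11.25 on the MEF arrays, and Cd8a read at most 5.99 there. MEF and T cell arrays were summarised apart, so levels are compared within each system only, and probe sets of different genes are not set against each other.

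**Figure D1:**
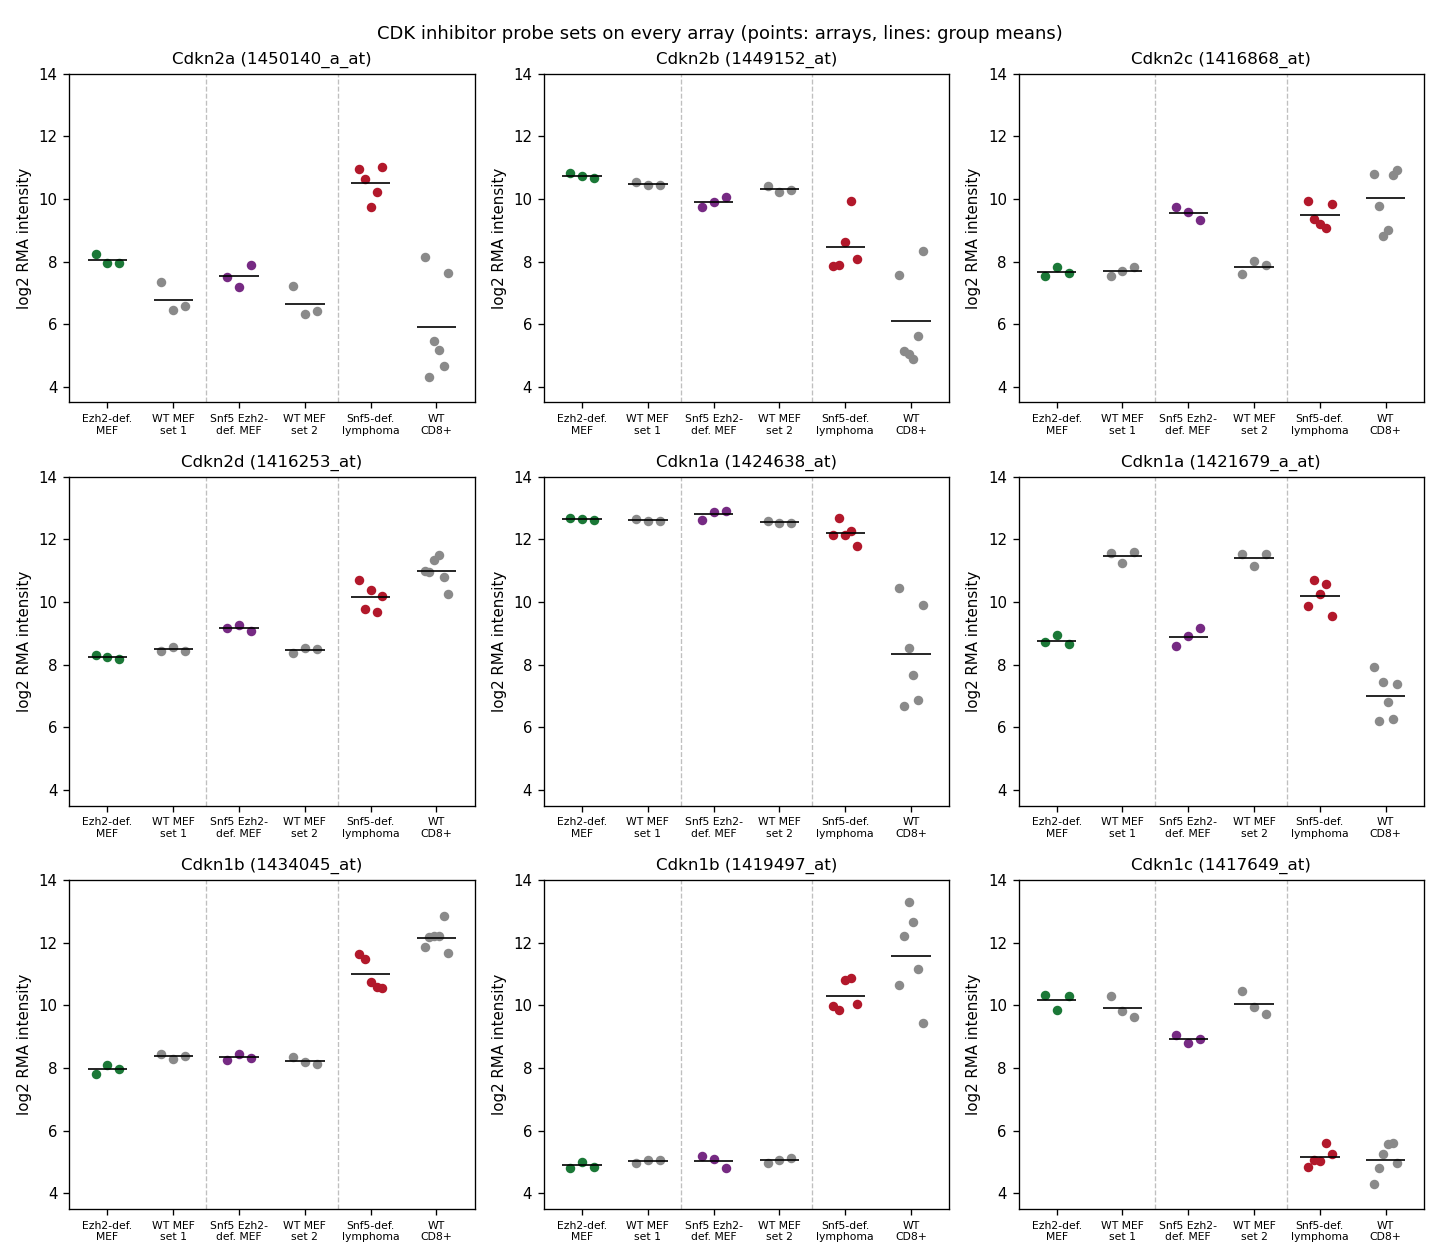
Log2 RMA intensity of the 9 CDK inhibitor probe sets on each of 23 arrays, with a point per array and a line at the group mean. Dashed lines separate the 3 comparisons. Cdkn2a lies between 9.75 and 11.01 in the lymphomas, above all 6 Wild Type CD8+ arrays, and the second Cdkn1a probe set lies lower in both mutant MEF groups.

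Of the INK4 genes, Cdkn2a was higher in the Ezh2-deficient MEFs and Cdkn2c, which encodes p18Ink4c, and Cdkn2d, which encodes p19Ink4d, were higher in the Snf5 Ezh2-deficient MEFs, where Cdkn2a passed as well. Cdkn2b, which encodes p15Ink4b, was lower when both genes were inactivated. Cdkn2a (1450140_a_at) read 8.23, 7.94 and 7.96 on the Ezh2-deficient arrays, against 7.34, 6.44 and 6.58 on the Wild Type arrays of its set. All 3 mutant arrays lay above all 3 controls, and the first Wild Type array stood closest to them. The change was 1.26 (SE 0.23, 2.39-fold; adjusted p = 0.0223, limma with Benjamini-Hochberg adjustment over all probe sets) and was the 7th highest of 12393 genes. In a bulk sample, fewer cells of a kind and less RNA per cell cannot be told apart. The call rested on few arrays: leaving out Wild Type array 2 gave 1.08, leaving out Wild Type array 3 gave 1.15 and leaving out Ezh2-deficient array 1 gave 1.16 (adjusted p between 0.0774 and 0.0898).

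The Ezh2-deficient arrays also differed among themselves in a Y-linked gene. Eif2s3y read 8.24, 3.65 and 4.00 on them, against 8.25, 8.11 and 8.19 on the Wild Type arrays, while Xist read 6.45, 9.56 and 9.52, against 6.28, 6.19 and 6.37. Arrays 2 and 3 thus differed from every control in these sex-linked genes. With the Eif2s3y level as a covariate, an alternative chosen after seeing the data, the Cdkn2a change was 1.48 and did not pass (adjusted p = 0.082, limma).

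On the double-deficient arrays Cdkn2a read 7.51, 7.19 and 7.89, against 7.22, 6.31 and 6.43 on the second-set Wild Type arrays. The lowest mutant array lay just under the highest control, so the groups overlapped. Its change of 0.88 passed (SE 0.23, 1.84-fold, adjusted p = 0.0175), but not without Wild Type arrays 2 or 3 or mutant array 3, each left out alone (0.70 to 0.76, adjusted p 0.0653 to 0.0701). The rises of both mutant lines were not shown to differ: the second minus the first was -0.38, with a 95% interval of -0.89 to 0.13 (adjusted p = 0.248). Ordered by mean, Ezh2-deficient MEFs (8.04 ± 0.159, SD) came before Snf5 Ezh2-deficient MEFs (7.53 ± 0.351), and Wild Type MEFs (6.79 ± 0.484 and 6.65 ± 0.493 in both summaries) came last. Brought to the scale of the first set, as in the difference above, the Snf5 Ezh2-deficient mean was 7.66. Which Cdkn2a transcript the probe set reads, p16 or Arf, is unstated in the sources used here.

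Cdkn2b (1449152_at), the gene next to Cdkn2a, read 9.73, 9.89 and 10.07 on the double-deficient arrays, against 10.40, 10.23 and 10.29 on their controls. Every mutant array was below every control, and the change was -0.41 (SE 0.087, adjusted p = 0.00576). On the Ezh2-deficient arrays it read 10.82, 10.73 and 10.67, against 10.54, 10.43 and 10.43. These groups did not overlap either, in the opposite direction, but the change of 0.28 did not pass (adjusted p = 0.103). The difference between both changes passed, at -0.69 (95% interval -0.88 to -0.49, adjusted p = 0.000305). Mtap, the gene on the other side of Cdkn2a, changed by -0.18 (adjusted p = 0.285) in the Ezh2-deficient MEFs and fell by 0.31 (adjusted p = 0.0384) in the double-deficient MEFs. Of the 10 measured genes flanking Cdkn2a, 5 on each side in chromosome order at any distance, 1 passed in the Ezh2-deficient MEFs, Ifna1 at 0.32. In the double-deficient MEFs 2 of them passed, Cdkn2b and Mtap, both lower. Over all genes, 1.02% were higher and 2.47% lower in the Ezh2 comparison, and 13.2% and 14.3% in the Snf5 Ezh2 comparison.

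Cdkn2c (1416868_at) had the largest rise among the main probe sets of the 7 members in either fibroblast line. It read 9.75, 9.59 and 9.34 in the double-deficient MEFs, against 7.59, 8.03 and 7.88 in Wild Type MEFs. The mutant arrays stood clear of all controls, and the change was 1.73 (SE 0.12, 3.31-fold, adjusted p = 8.99e-06), the 46th highest of all genes. In the Ezh2-deficient MEFs it read 7.54, 7.81 and 7.63, against 7.53, 7.70 and 7.82. The groups overlapped, with a change of -0.03 (95% interval -0.30 to 0.24, adjusted p = 0.904). The difference between the mutant lines was 1.76 (adjusted p = 1.01e-05).

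Cdkn2d (1416253_at) was also higher in the double-deficient MEFs. It read 9.18, 9.26 and 9.08 there, against 8.38, 8.53 and 8.49 in Wild Type MEFs. All mutant arrays were higher, with a change of 0.71 (SE 0.0669, 1.63-fold, adjusted p = 5.23e-05). The Ezh2-deficient arrays read 8.30, 8.26 and 8.18, against 8.45, 8.56 and 8.45, a change of -0.24 that did not pass (adjusted p = 0.0776) although the groups did not overlap. Between the mutant lines the change differed by 0.95 (adjusted p = 1.19e-05). The order of Cdkn2d levels was therefore Snf5 Ezh2-deficient, Wild Type, Ezh2-deficient, the last step not passing the test.

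Among the CIP/KIP genes, the 2 probe sets of Cdkn1a, which encodes the p53-responsive inhibitor p21, did not move together in fibroblasts. The main one, 1424638_at, read 12.68, 12.64 and 12.62 in the Ezh2-deficient MEFs, against 12.66, 12.59 and 12.59 in Wild Type MEFs. Those groups overlapped and the change was 0.03 (95% interval -0.14 to 0.20, adjusted p = 0.832). The double-deficient arrays read 12.63, 12.87 and 12.91, against 12.59, 12.51 and 12.54. The mutant arrays were all higher, by 0.26 on average (SE 0.0755, adjusted p = 0.0293). This call was lost without any of the 3 Wild Type arrays or mutant arrays 2 or 3 (0.20 to 0.28, adjusted p 0.0514 to 0.0961), and when the 6 arrays of that set were fitted alone (adjusted p = 0.0511). The probe set lay above 98.4% of all values on every MEF array, near the top of the scale.

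The other Cdkn1a probe set, 1421679_a_at, read 8.71, 8.94 and 8.65 in the Ezh2-deficient MEFs, against 11.57, 11.25 and 11.60 in Wild Type MEFs. The double-deficient MEFs gave 8.59, 8.93 and 9.17, against 11.54, 11.16 and 11.52. Neither mutant group came near its controls. The changes were -2.71 (SE 0.147, 6.53-fold lower, adjusted p = 9.32e-06) and -2.51 (5.71-fold lower, adjusted p = 3.47e-06), and they were not shown to differ (0.19, 95% interval -0.13 to 0.52, adjusted p = 0.360). Leaving out any MEF array kept both calls, with changes of -2.82 to -2.64 and -2.65 to -2.36.

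The gap between the changes of the 2 probe sets was 2.74 in the Ezh2-deficient and 2.77 in the Snf5 Ezh2-deficient MEFs. Among 4956 genes with at least 2 probe sets the median gap was 0.127 in both. A gap at least as wide as that of Cdkn1a occurred in 4 genes in the Ezh2 comparison, Riok3, Galc, Xist and Cdkn1a itself, and in 3 in the Snf5 Ezh2 comparison, Galc, Paip1 and Cdkn1a. The 10 measured genes flanking Cdkn1a, 5 on each side in chromosome order at any distance, changed by -0.30 to 0.12 in the Ezh2-deficient MEFs. There limma called 0 of them and 3 had an unadjusted p under 0.05. In the double-deficient MEFs 4 of the 10 were lower and 0 higher, against 14.3% and 13.2% of all genes. Mapk13, named after its value was seen, fell most (-1.49, adjusted p = 2.57e-05, limma). The annotation used here gives no probe positions within the gene, and no single direction is stated for Cdkn1a in the fibroblasts.

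**Figure D2:**
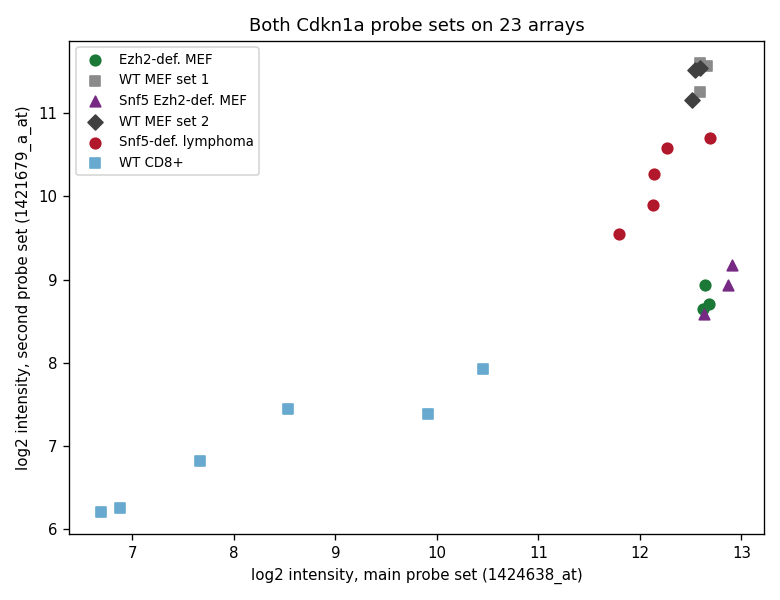
Log2 intensity of the second Cdkn1a probe set against the main one on 23 arrays, by group. Ezh2-deficient and Snf5 Ezh2-deficient MEFs read 8.59 to 9.17 on the vertical axis, below the Wild Type MEFs at 11.16 to 11.60, while the horizontal positions lie within 12.51 and 12.91; in T cells both probe sets are higher in the lymphomas.

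Cdkn1b (1434045_at), which encodes p27, read 7.82, 8.10 and 7.95 in the Ezh2-deficient MEFs, against 8.44, 8.29 and 8.38 in Wild Type MEFs. The groups did not overlap and the change was -0.41 (SE 0.0845, adjusted p = 0.0327). Leaving out any of the Wild Type arrays, Ezh2-deficient array 1 or Ezh2-deficient array 3 ended that call (-0.45 to -0.34, adjusted p 0.0728 to 0.101), as did fitting the 6 arrays of its set alone (adjusted p = 0.0572) or repeating the quantile normalisation (adjusted p = 0.0637). The Snf5 Ezh2-deficient arrays read 8.25, 8.43 and 8.33, against 8.35, 8.18 and 8.12, overlapping with a change of 0.12 (adjusted p = 0.349). The difference between the lines was 0.53 (95% interval 0.35 to 0.72, adjusted p = 0.00118). The other Cdkn1b probe set, 1419497_at, read 4.80 to 5.18 on all MEF arrays, within the lowest 25% of values, and did not pass in either line.

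Cdkn1c (1417649_at), the imprinted gene for p57, was lower in the double-deficient MEFs. It read 9.06, 8.78 and 8.92 there, against 10.44, 9.93 and 9.72 in Wild Type MEFs. Every mutant array was below every control, the change was -1.11 (SE 0.18, 2.16-fold lower, adjusted p = 0.0013), and it was the 111th lowest of all genes. The Ezh2-deficient arrays read 10.34, 9.84 and 10.30, against 10.31, 9.82 and 9.61. They overlapped with their controls at a change of 0.25 (95% interval -0.15 to 0.65, adjusted p = 0.428). The difference between the lines was -1.36 (adjusted p = 0.000403).

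Counted by main probe set, 1 of 7 members was higher and 1 lower in the Ezh2-deficient MEFs, where 1.02% of all genes were higher and 2.47% lower. With both genes inactivated 4 were higher and 2 lower, against 13.2% and 14.3% of all genes. Groups did not overlap for 4 members in the Ezh2 and 5 in the Snf5 Ezh2 comparison, where 32.7% and 43.2% of all genes did so. For the difference between the mutant lines 4 members were higher and 2 lower in the double-deficient MEFs, against 16.3% and 13.6% of all genes. The median change of the members was 0.03 in the Ezh2 and 0.26 in the Snf5 Ezh2 comparison, where that of all genes was 0.004 and -0.003. With 3 arrays against 3 an exact permutation test cannot go below 0.1, so the calls rest on limma's spread shared across probe sets.

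**Figure D3:**
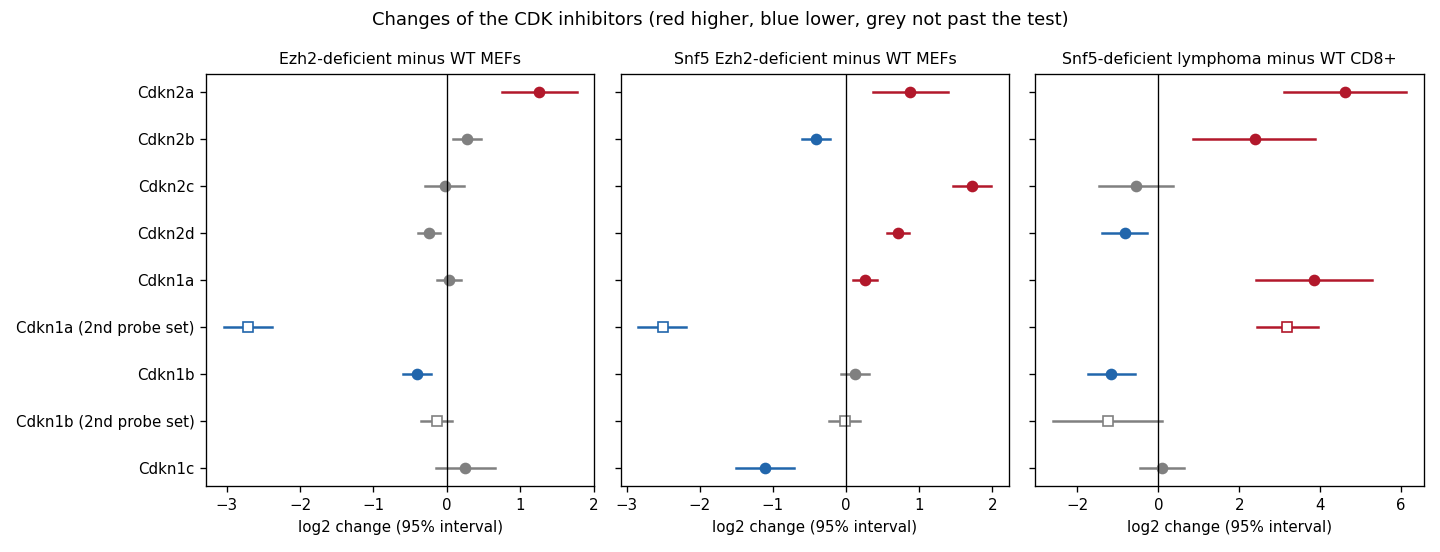
Log2 changes with 95% intervals of the 9 probe sets in the 3 comparisons, each as mutant or lymphoma minus Wild Type (horizontal scales differ). Filled circles are main probe sets and open squares the others; Cdkn2a is higher in all 3, at 1.26, 0.88 and 4.62, and Cdkn2b is at 0.28, -0.41 and 2.38.

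Among the partners of the inhibitors, 3 of 10 measured CDKs and cyclins passed in the Ezh2-deficient MEFs, all lower (over all genes, 2.47%). Those were Cdk1, the mitotic kinase (-0.65, SE 0.0963, adjusted p = 0.0105), Ccna2, a cyclin of S phase (-0.64), and Ccne2, a partner of CDK2 (-0.47). The double-deficient MEFs had 3 higher and 3 lower, against 13.2% and 14.3% of all genes. Of the 3 D-type cyclins that INK4 proteins displace, Ccnd2 (0.82, adjusted p = 2.5e-05) and Ccnd3 (0.28, adjusted p = 0.00368) were higher there and Ccnd1 was lower (-0.54, adjusted p = 0.0254). Their kinase Cdk4 read 11.10, 10.96 and 11.11 in the double-deficient MEFs, overlapping with 11.09, 11.22 and 11.09 in Wild Type MEFs.

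Of 34 proliferation genes, which include replication and mitosis factors, 20 passed in the Ezh2-deficient MEFs, all lower, and the median change was -0.44. Over all genes, 2.47% were lower there. With both genes inactivated 1 was higher and 1 lower, with a median of 0.02. Their mean level ran from 7.58 to 7.73 on the Ezh2-deficient arrays, against 7.97 to 8.21 on the Wild Type arrays, and from 7.97 to 8.21 on the Snf5 Ezh2-deficient arrays, against 7.94 to 8.16. Tk1 (-0.81), Mcm5 (-0.76) and Kif20a (-0.72) led the falls. In the double-deficient MEFs 1 of 10 fibroblast markers was higher, Pdgfra (1.76, adjusted p = 0.000469), 1 lower, Fn1 (-0.21), and 1 of 4 endothelial markers higher, Tek (1.46, adjusted p = 1.7e-06). Over all genes, 13.2% were higher and 14.3% lower there, so the fibroblast marker counts stood near those shares. The part of the proliferation and marker genes in the inhibitors' values was not tested.

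Of 10 retinoblastoma and E2F genes limma called 0 in the Ezh2-deficient MEFs, where 1 was higher and 2 lower at an unadjusted p under 0.05. When both genes were inactivated Rb1, the pocket protein that INK4 proteins act through, rose by 1.12 (SE 0.0967, adjusted p = 3.09e-05) and Tfdp1, the E2F partner, fell by 0.34 (adjusted p = 0.00435). The p53 axis, 17 measured genes without Cdkn1a, had 0 calls by limma in the Ezh2-deficient MEFs, with 6 higher and 2 lower at an unadjusted p under 0.05. It had 11 higher and 1 lower in the double-deficient MEFs, against 13.2% and 14.3% of all genes, with a median change of 0.34. Fas, a death receptor (1.88), Pmaip1, a BH3-only protein (1.43), and Trp53inp1 (1.01) rose most among them, and Plk2, chosen after its value was seen, was the 1 that fell (-0.36). These stood beside the disagreeing probe sets of Cdkn1a.

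Regulators of the INK4 locus were measured as 2 lists. Of 16 Polycomb subunits, 1 was higher and 2 lower in the Ezh2-deficient MEFs, Ezh2 itself and Rbbp4 (-0.23). Over all genes, 1.02% were higher and 2.47% lower there. Bmi1, the PRC1 subunit known for repressing Cdkn2a, read 9.07, 9.09 and 9.19, against 8.77, 8.83 and 8.85, higher on every mutant array by 0.30 on average (adjusted p = 0.0365). The double-deficient MEFs showed 6 higher and 2 lower, against 13.2% and 14.3% of all genes. Bmi1 rose there by 0.67 (adjusted p = 5.68e-05) and Rnf2, the catalytic subunit of PRC1, by 1.18 (adjusted p = 6.52e-06). Of 19 other regulators of Ink4 and Arf transcription, limma called 0 in the Ezh2-deficient MEFs, with 2 higher and 6 lower at an unadjusted p under 0.05, and called 5 higher and 5 lower in the double-deficient MEFs. Tbx2, a T-box repressor of Arf and Cdkn1a, was at 1.01 (adjusted p = 0.0176) and Id2, an inhibitor of E-proteins, at 0.99 (adjusted p = 0.00573).

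The list for p27 turnover and FOXO control is given beside Cdkn1b. Its turnover genes act on the p27 protein, while the arrays read RNA, and a part in the Cdkn1b values was not tested. In the Ezh2-deficient MEFs 4 of 10 genes passed, all lower, where 1.02% of all genes were higher and 2.47% lower. Among the 4 were Klf2 (-0.51, adjusted p = 0.0458, limma), Skp2 (-0.46, adjusted p = 0.0305) and Cks1b (-0.32, adjusted p = 0.0308). Skp2 and Cks1b together tag p27 for destruction. Double-deficient MEFs had 4 higher and 4 lower, against 13.2% and 14.3% of all genes. Fbxw7, an adaptor that tags cyclin E, was at 0.77 (adjusted p = 8.94e-05, limma), Klf4 at 0.69 and Klf2 at -0.48. Among 14 imprinted genes near Cdkn1c or of growth control, 1 passed in the Ezh2-deficient MEFs, Plagl1, a growth-suppressing zinc finger gene, at 0.53 (adjusted p = 0.0306). In the double-deficient MEFs 4 were higher and 1 lower, Nap1l4 (-0.32), which was chosen after its value was seen. Mest (2.88, adjusted p = 1.7e-06), Dlk1 (2.72) and Plagl1 (1.20), all imprinted, rose there while Cdkn1c fell.

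**Figure D4:**
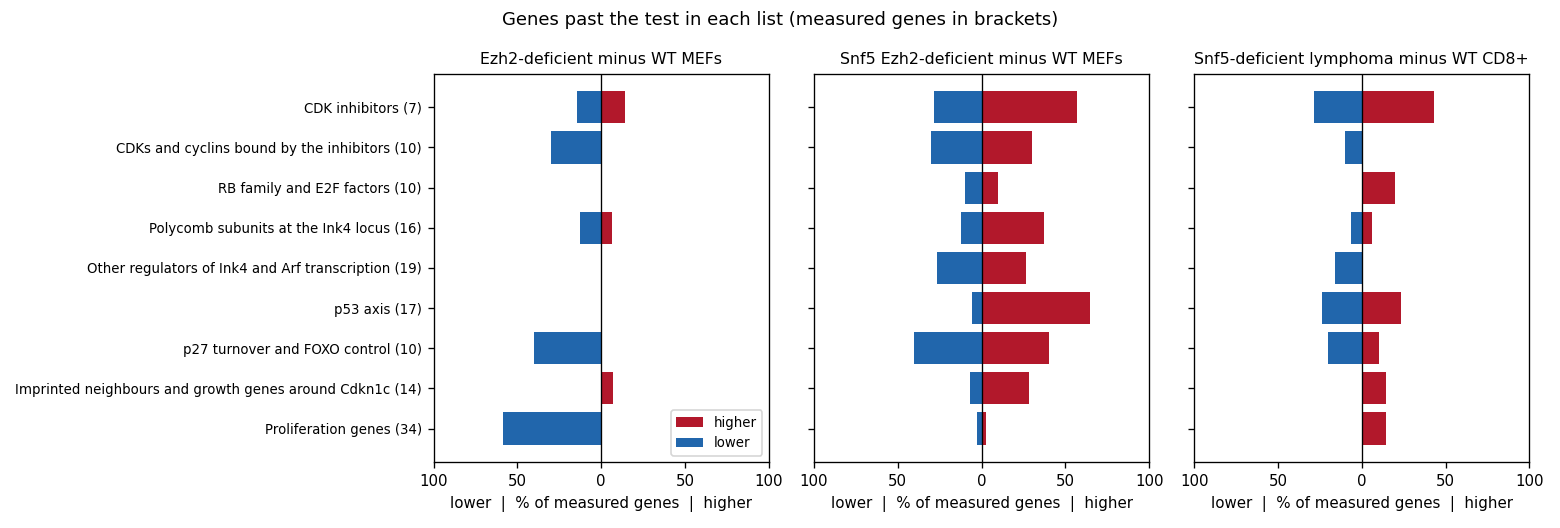
Percentage of the measured genes of each list that passed the test as higher (red, to the right) or lower (blue, to the left) in the 3 comparisons, with the number measured in brackets. In the Ezh2-deficient MEFs 20 of 34 proliferation genes are lower, against 2.47% of all genes. In the double-deficient MEFs 11 of 17 genes of the p53 axis are higher, against 13.2% of all genes.

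The 6 Wild Type CD8+ arrays differed among themselves, and results are given with all of them and with some left out. Arrays 1 and 6 correlated at 0.984 with each other and at 0.887 to 0.935 with arrays 2 to 5, which correlated at 0.932 to 0.985 among themselves, so that the ranges met. Cd8a read 13.12 to 13.55 in the lymphomas and 10.73, 13.45, 13.64, 13.58, 13.32 and 10.59 in the Wild Type cells, lowest on arrays 1 and 6. The 9 myeloid markers averaged 8.90 to 10.81 in the lymphomas and 12.64, 8.49, 6.51, 6.79, 7.98 and 12.50 in the Wild Type cells. The 5 B cell markers averaged 5.39 to 6.14 in the lymphomas, against 10.41 and 10.12 on Wild Type arrays 1 and 6 and 7.02 to 7.75 on the others. Of the B cell list 1 of 5 was lower in the lymphomas, Cd79b, at -4.01 (adjusted p = 0.000959). Of 3 measured NK cell markers 2 were lower, Klrd1 (-6.45, adjusted p = 0.000516) and Klrk1 (-3.38, adjusted p = 0.0231). Of 9 CD8 T cell markers 1 was higher, Cd28 (0.60, adjusted p = 0.0407), and 1 lower, Cd2 (-4.05, adjusted p = 0.0102). Over all genes, 9.13% were higher and 7.71% lower in the lymphomas. Proliferation genes averaged 11.50 to 11.81 in the lymphomas and 8.68 to 11.58 in the Wild Type cells. The arrays thus differed in the markers of several cell types.

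Wild Type arrays 2 and 5 also read higher than arrays 3 and 4 for some other cell types, but not for NK cells. The 3 NK cell markers averaged 8.28 and 7.55 on arrays 2 and 5, against 9.6 and 8.71 on arrays 3 and 4. Cd4, the marker of helper T cells, read 5.92 to 6.73 in the lymphomas and 9.12, 9.63, 6.58, 6.25, 11.11 and 8.99 in the Wild Type cells. Mpo, a granule enzyme of myeloid cells, read 12.08, 11.21, 6.30, 7.67 and 12.33 in the lymphomas, against at least 13.83 on Wild Type arrays 1 and 6, 11.99 and 11.39 on arrays 2 and 5, and 4.49 and 5.22 on arrays 3 and 4. Arrays 3 and 4 were the lowest Wild Type arrays for both genes. The 4 erythroid markers averaged 5.38 to 7.15 in the lymphomas and 7.64, 8.33, 5.43, 5.30, 8.63 and 7.98 in the Wild Type cells, and 1 of them, Hba-a1, was lower in the lymphomas (-0.56, adjusted p = 0.0341).

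The lymphomas were not uniform in their targeted gene. Smarcb1 read 8.30, 8.49, 5.81, 5.64 and 8.67 in the lymphomas, against 10.38 to 11.48 in the Wild Type cells. All lymphomas lay below all controls, and lymphomas 1, 2 and 5, which held the higher Smarcb1 values, were also those with the higher Mpo values. Xist was low in lymphomas 2, 3 and 4 (4.85 to 5.44) and at least 12.25 on all other T cell arrays. Eif2s3y read 3.45, 11.81, 11.93, 12.55 and 3.32 in the lymphomas and 3.20, 3.46, 9.84, 6.11, 3.91 and 3.22 in the Wild Type cells, so that Wild Type arrays 3 and 4 read above the other controls for this Y-linked gene while Xist was high on all 6. The part of these contents in the inhibitors' changes was not tested beyond leaving out Wild Type arrays 1 and 6, or arrays 1, 2, 5 and 6, both chosen after seeing the data.

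Cdkn2a, Cdkn1a and Cdkn2b were higher in the Snf5-deficient lymphomas and Cdkn1b and Cdkn2d were lower. Cdkn2a read 10.96, 10.65, 9.75, 10.22 and 11.01 in the lymphomas. In the 6 Wild Type CD8+ arrays it had a lowest value of 4.32, a median of 5.32 and a highest of 8.16. The groups did not overlap, and the highest controls were arrays 1 and 6, at 8.16 and 7.63. The change was 4.62 (SE 0.686, 24.6-fold, adjusted p = 0.00151, limma; exact two-sided permutation p = 0.00433), the 28th highest of 12393 genes. It was 5.62 without Wild Type arrays 1 and 6 (adjusted p = 8.31e-06) and 4.30 to 5.07 when any one array was left out. On 3 of the 6 Wild Type arrays Cdkn2a lay in the lowest 25% of values, so the fold is one against readings near the floor.

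Cdkn2b, next to it on the chromosome, read 7.87, 7.88, 8.61, 9.94 and 8.09 in the lymphomas. Its lowest, median and highest Wild Type values were 4.88, 5.37 and 8.34. Wild Type arrays 6 (8.34) and 1 (7.58) reached into or close to the lymphoma range, and lymphoma 4 stood highest. The change of 2.38 passed (SE 0.685, 5.20-fold, adjusted p = 0.0388; exact permutation p = 0.0238). It no longer passed without any of Wild Type arrays 2 to 5 or any lymphoma array (2.01 to 2.53, adjusted p 0.052 to 0.0962), and it was 3.31 without Wild Type arrays 1 and 6 (adjusted p = 0.000615). On 3 of the 6 Wild Type arrays Cdkn2b too lay in the lowest 25% of values, so its fold is also one against readings near the floor. Of the 10 measured genes flanking Cdkn2a, 5 on each side in chromosome order at any distance, 2 passed in the lymphomas. Both were higher, Cdkn2b and Plaa (0.57, adjusted p = 0.0142, limma). Of the 10 flanking Cdkn2b, taken likewise, 3 passed, all higher, Cdkn2a, Plaa and Ift74 (1.39, adjusted p = 0.0132, limma). Plaa and Ift74 were named after their values were seen. Over all genes, 9.13% were higher and 7.71% lower in this comparison. Mtap, on the far side of Cdkn2a, changed by 0.91 and did not pass (adjusted p = 0.0958).

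Cdkn1a rose on both probe sets. The main one read 12.13, 12.69, 12.14, 12.27 and 11.79 in the lymphomas, against a lowest, median and highest of 6.69, 8.10 and 10.45 in the Wild Type cells. No control reached the lymphomas, and arrays 1 and 6 were again the highest controls. The change was 3.85 (SE 0.653, 14.4-fold, adjusted p = 0.00311; exact permutation p = 0.00433), and 4.76 without arrays 1 and 6. The other probe set read 9.89, 10.70, 10.27, 10.58 and 9.55, against 6.21, 7.11 and 7.92 as lowest, median and highest, a change of 3.19 (SE 0.343, adjusted p = 0.000274; exact permutation p = 0.00216, the smallest that 5 against 6 arrays allow). The gap between both changes was 0.66, and 30.2% of genes with several probe sets had a gap at least as wide in that comparison.

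**Figure D5:**
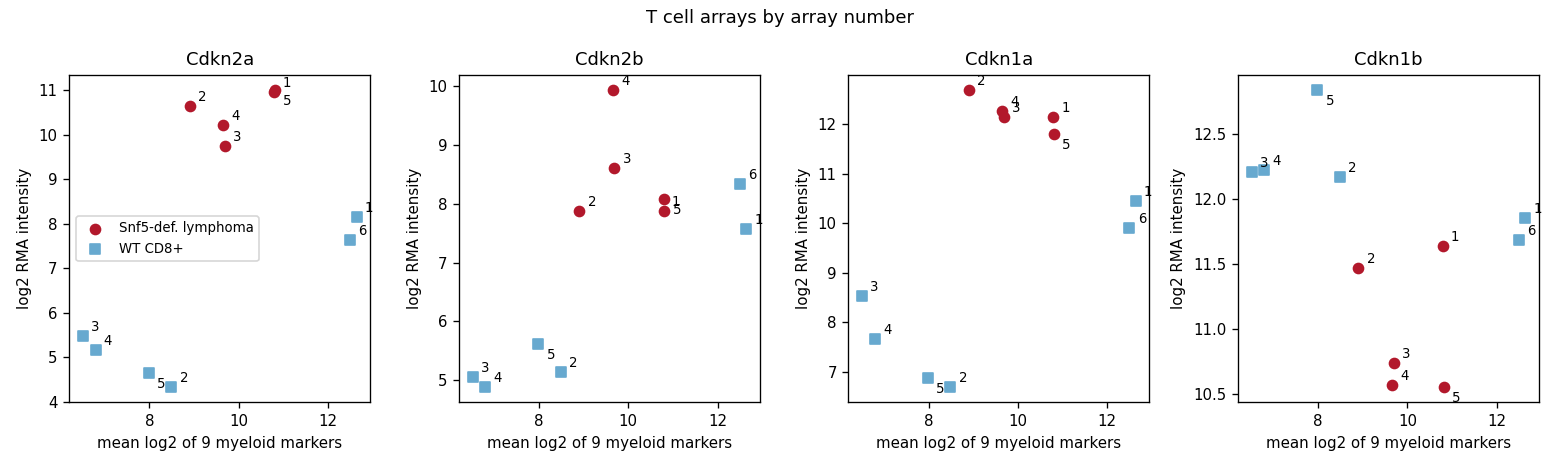
Log2 intensity of 4 CDK inhibitors against the mean log2 level of 9 myeloid markers on the T cell arrays, numbered by array. Wild Type arrays 1 and 6 lie at 12.64 and 12.50 on the horizontal axis, right of all lymphomas, and hold the highest Wild Type values of Cdkn2a, Cdkn2b and Cdkn1a and the lowest of Cdkn1b.

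Cdkn1b was lower in the lymphomas. Its main probe set read 11.64, 11.47, 10.74, 10.57 and 10.55 in the lymphomas, against a lowest, median and highest of 11.68, 12.19 and 12.84 in the Wild Type cells. Every lymphoma lay below every control, lymphoma 1 narrowly, and the change was -1.17 (SE 0.265, 2.24-fold lower, adjusted p = 0.0137; exact permutation p = 0.00216). The call held with any one array left out (adjusted p 0.0109 to 0.040) and at -1.37 without Wild Type arrays 1 and 6. The other probe set gave -1.25 and did not pass (SE 0.613, adjusted p = 0.195). It read 9.84 to 10.87 in the lymphomas, against 9.42 to 13.29 in the Wild Type cells, and was -2.02 without arrays 1 and 6 (adjusted p = 0.00825).

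Cdkn2d read 10.70, 9.78, 10.37, 9.68 and 10.21 in the lymphomas, against a lowest, median and highest of 10.27, 10.97 and 11.50. The groups overlapped through Wild Type array 6 at 10.27, and the change of -0.83 passed narrowly (SE 0.251, adjusted p = 0.0473; exact permutation p = 0.0173). Leaving out any of Wild Type arrays 1 to 5 or lymphomas 2 to 5 ended the call (-0.88 to -0.71, adjusted p 0.0593 to 0.116), as did centring each array on its median (adjusted p = 0.0663). Cdkn2c read 9.06 to 9.93 in the lymphomas, against 8.83 to 10.93 in the Wild Type cells, with a change of -0.55 that did not pass (95% interval -1.47 to 0.37, adjusted p = 0.404) and was 0.55 against Wild Type arrays 3 and 4 alone (adjusted p = 0.179). Cdkn1c read 4.85 to 5.60, against 4.28 to 5.59, near the floor in both groups, with a change of 0.09 (adjusted p = 0.839).

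By main probe set, 3 of 7 members were higher and 2 lower in the lymphomas, where 9.13% of all genes were higher and 7.71% lower. Groups did not overlap for 3 members, Cdkn2a, Cdkn1a and Cdkn1b, and for 12.8% of all genes. The median change of the members was 0.09, against -0.07 over all genes. Without Wild Type arrays 1 and 6, and without arrays 1, 2, 5 and 6, the counts were again 3 higher and 2 lower. With arrays 3 and 4 alone as controls Cdkn2a changed by 5.20, Cdkn1a by 4.11, Cdkn2b by 3.51, Cdkn1b by -1.22 and Cdkn2d by -1.27 (adjusted p 0.000166 to 0.0421, limma). The mean over the 7 members was 9.40 to 9.72 on the lymphoma arrays, against 9.16 and 9.10 on Wild Type arrays 1 and 6 and 7.69 to 8.16 on arrays 2 to 5.

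Of 10 CDKs and cyclins 1 passed in the lymphomas, Ccnd3, a D-type cyclin used by developing T cells, which was lower (-0.57, adjusted p = 0.0314); 4 others were higher at an unadjusted p under 0.05. Cdk6 read 10.21, 10.33, 7.15, 6.79 and 6.14 in the lymphomas, against 3.79 to 8.14 in the Wild Type cells, so that lymphomas 1 and 2 stood above all others. Among 10 retinoblastoma and E2F genes, 2 passed, E2f3 (1.51) and Rbl2 (1.42), both higher. Over all genes, 9.13% were higher and 7.71% lower. Of 34 proliferation genes 5 passed, all higher, and the median change of the list was 1.34. At an unadjusted p under 0.05 (limma) 20 were higher and 0 lower. Chek1 (2.20), Tk1 (1.98) and Tyms (1.48) were the 3 largest of those that passed.

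The p53 axis split in the lymphomas, with 4 of 17 genes higher and 4 lower beside the rise of Cdkn1a. Beside this and the lists below, 9.13% of all genes were higher and 7.71% lower. Perp, a p53-induced membrane protein (4.26, adjusted p = 0.0309), and Phlda3 (2.52, adjusted p = 0.00562) were higher, and Gadd45a, a stress-response gene, was lower (-2.32, adjusted p = 0.00109). Mdm2 read 12.47 to 13.16, against 12.08 to 12.73. In the list around Cdkn1b, Foxo3, a FOXO factor known to activate Cdkn1b, was lower (-1.20, adjusted p = 0.00369, limma). Klf2, a quiescence factor of T cells, was lower too (-2.39, adjusted p = 0.0287). Akt1, which acts against FOXO factors, was higher (0.70, adjusted p = 0.0132), and 7 of 10 did not pass. The part of these genes in the Cdkn1b change was not tested. Of 14 imprinted genes 2 passed, both higher, Peg3 (4.93, adjusted p = 0.000851) and Plagl1 (3.15, adjusted p = 0.00888), while Cdkn1c stayed near the floor. Among Polycomb subunits Ezh2 was higher (1.57, adjusted p = 0.0133) and Jarid2, a PRC2 partner, lower (-0.94, adjusted p = 0.0198), and 14 of 16 did not pass. Of 19 other regulators of Ink4 and Arf transcription 0 were higher and 3 lower. Those 3 were Smarcb1 itself, Smarca2 (-1.11, adjusted p = 0.00875, limma) and Id2 (-1.09, adjusted p = 0.012, limma). Id2 had risen in the double-deficient MEFs.

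Genes with the most similar pattern were sought by Pearson correlation with the main probe set over the 9 distinct MEF arrays and over the 11 T cell arrays, as a description. In MEFs the closest to Cdkn2c was Serpinb1a (r = 0.991), the closest to Cdkn2d was Evc (0.996), to Cdkn2b Gys1 (0.983), to Cdkn1c Nlk (0.985) and to Cdkn1a Pink1 (0.966). Cdkn2a had weaker matches there, led by Cyp2d34 (0.935). In T cells the closest to Cdkn2a were Dusp14 (0.984), Peg3 (0.982) and Gng3 (0.981). Gng3 was also among the 3 closest to Cdkn1a (0.981), behind Smpdl3b (0.989). For Cdkn2b it was Cpped1 (0.986), for Cdkn1b Ccni (0.975) and for Cdkn2d Abcg3 (0.950). All points of a system share their groups, their normalisation and, in MEFs, the same 3 controls.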

How the data were processed

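Total RNA was run on Affymetrix 430A 2.0 mouse arrays, and the authors summarised the scans with Robust Multichip Average (RMA), per the labels' protocols and the submitters' processing notes; its version is unstated in these sources. The deposited values are RMA intensity on a linear scale, although the design had assumed log2 values, and log2 was taken here. Of 22690 probe sets, 64 controls were left out and 22626 tested; 20380 named 1 gene. Groups were compared in limma 3.58.1 (lmFit, eBayes; R 4.3.3), adjusting over all probe sets by Benjamini-Hochberg with a threshold of 0.05. Second-set MEF arrays were brought to the first set's scale by the offset of the repeated controls per probe set, and each control was averaged over both summaries. The error of this offset is not included in the tests of the difference between the mutant lines. The MEF fit had 6 and the T cell fit 9 residual degrees of freedom, with a median SE of 0.0771 and 0.236; the number of arrays limits the precision. The titles call the replicates biological, but separate cultures or animals are not stated, so p-values measure the spread between these samples. The genes named from each list were taken from its called members with the 3 largest changes, not all of which are named. Ccnd3 in the double-deficient MEFs, Cdk4, Cdk6, Mdm2, Mtap, Cd8a, Cd4, Mpo and sex-linked genes were added for context. Steps were tested on simulated data. Alternatives were separate fits, a replicate block, array weights, other scalings and filters, and left-out arrays. The members and lists were chosen with earlier results of these data known.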

Additional observations from a re-analysis of the deposited data

Results flagged for a closer look

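The change against Wild Type MEFs differed between the mutant lines for 6 members, tested as the Snf5 Ezh2-deficient minus the Ezh2-deficient change (limma, adjusted over all probe sets; 16.3% of all genes were higher and 13.6% lower). The error of the offset that joins both MEF sets is not part of these p-values. Cdkn2c differed by 1.76 (adjusted p = 1.01e-05) and Cdkn2d by 0.95 (adjusted p = 1.19e-05). Cdkn1b differed by 0.53 (adjusted p = 0.00118) and Cdkn1a, on its main probe set, by 0.23 (adjusted p = 0.0481); the Cdkn1a difference no longer passed when any one MEF array other than Snf5 Ezh2-deficient array 1 was left out (0.173 to 0.246, adjusted p 0.060 to 0.154), or with array weights (0.173, adjusted p = 0.131). Cdkn2b differed by -0.69 (adjusted p = 0.000305) and Cdkn1c by -1.36 (adjusted p = 0.000403). On the second Cdkn1a probe set the difference was 0.19 and did not pass (adjusted p = 0.360). Proliferation genes moved with the same contrast: 26 of 34 passed, all higher in the Snf5 Ezh2-deficient MEFs, and the part of that shift in these differences was not tested. No array stood out by Dixon's criterion in any of 18 groups of 5 or 6 T cell arrays. Groups of 3 were not tested. The criterion sets the most extreme value against the next one. Arrays that deviate together, such as Wild Type CD8+ arrays 1 and 6, can therefore hide each other from it.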

How the results depend on the processing

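Calls of Cdkn2c, Cdkn2d, Cdkn2b and Cdkn1c in the double-deficient MEFs, of the second Cdkn1a probe set in both fibroblast lines, and of Cdkn2a, Cdkn1a and the main Cdkn1b probe set in the lymphomas passed under every alternative tried for them. The Ezh2 comparison depended most on the settings. Its 432 called genes became 258 when each set was fitted alone, 851 with 12 MEF arrays, 213 with the replicate block, 907 with array weights, 73 with Eif2s3y as a covariate (an alternative added after seeing the data) and 87 (without Wild Type array 2) to 505 when arrays were left out in turn. Its 1 lower member, Cdkn1b, was lost (0 lower) when each set was fitted alone, with the replicate block, with quantile normalisation repeated and with the covariate; with 12 arrays 2 were lower. The covariate also left 0 higher. Leaving out arrays in turn gave 0 to 1 higher and 0 to 1 lower members there, 2 to 4 higher in the double-deficient MEFs and 1 to 2 lower in the lymphomas. Centring each array on its median left 1 lower member in the lymphomas. The difference between the mutant lines had 1968 called genes with 12 arrays and 1869 with the covariate, against 3704. The lymphoma comparison had 3227 with array weights and 3273 without Wild Type CD8+ arrays 1 and 6 and 3184 without arrays 1, 2, 5 and 6 (both added after seeing the data), against 2088. Signs turned only for changes that did not pass: Cdkn2c in the Ezh2-deficient MEFs ran from -0.106 to 0.040 over left-out arrays (0.030 without Ezh2-deficient array 1). The dim Cdkn1b probe set in the double-deficient MEFs ran from -0.102 to 0.089 (0.010 without Wild Type array 3) and was 0.017 with array weights. Cdkn1c in the lymphomas ran from -0.075 to 0.188 (-0.024 without lymphoma 4) and was -0.142 without Wild Type arrays 1 and 6 and -0.247 without arrays 1, 2, 5 and 6, where Cdkn2c was 0.547. The cause of these shifts was not tested. Whether replicate numbers pair the samples was not settled. Deviations of same-numbered arrays correlated at -0.028 to 0.149 in the Ezh2, -0.041 to 0.028 in the Snf5 Ezh2 and 0.080 to 0.312 in the lymphoma comparison. The control of the same number correlated best with Ezh2-deficient arrays 1 and 2, Snf5 Ezh2-deficient array 2 and lymphomas 1, 2 and 4, but not with the other arrays. With the replicate block, Cdkn1a no longer passed in the double-deficient MEFs (0.257, adjusted p = 0.0542) or for the difference (0.227, adjusted p = 0.0796), and the second Cdkn1b probe set passed in the lymphomas (-1.68, adjusted p = 0.0205).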
